A study of Mus musculus with 17 samples.

Results

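The collagen genes were examined in sorted alveolar epithelial type 2 (AT2) cells, the cells that make surfactant and renew the alveolar lining of the lung. A gene was a member when its approved mouse symbol had the form Col, type number, a, chain number, with antisense genes and pseudogenes left out. This gave 44 of the 43430 genes in the count tables. By protein class, 11 were fibrillar collagens, 9 were network collagens and 24 were other collagens. RNA was sequenced from 17 libraries of C57BL/6J mice, all with an age label of 2 months. The 9 libraries of the injury experiment were total-RNA libraries, made with the SMARTer Stranded Total RNA-Seq Pico kit from 0.35 ng of RNA. They came from naive mice (naive 1 to 4) and from mice 14 days after bleomycin, an agent that damages DNA and is widely given to rodents to bring on lung injury and scarring (bleomycin 1 to 5). All 9 carry the treatment label vehicle and saline in their titles. The 8 libraries of the drug experiment were poly(A) libraries, made with the NEBNext Ultra kit from 3 ng of RNA, from naive mice 24 h after vehicle (vehicle 1 to 4, saline in their titles) or after ISRIB (ISRIB 1 to 4). ISRIB is a compound that keeps the initiation factor eIF2B active, so that protein synthesis goes on while the integrated stress response is switched on. The labels give no dose of either drug, and no source used here gives the sorting gate. They also do not say whether each library came from its own mouse, so p-values measure the spread between these libraries.

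Collagens are extracellular proteins of 3 chains wound into a triple helix. Fibrillar collagens such as types I and III form the banded fibrils that give tissue its tensile strength, and in lung fibrosis they are known mainly as products of fibroblasts. Type IV collagen forms the sheet-like network of basement membranes, on which the alveolar epithelium rests. Its chains assemble into set combinations, Col4a1 with Col4a2 in nearly all basement membranes, and Col4a3 with Col4a4 and Col4a5 in those of the alveolus and the kidney glomerulus. Type VI collagen forms beaded filaments next to basement membranes, and the remaining types anchor, coat or cross cell membranes.

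The type IV genes lie in head-to-head pairs, in which both chains are read outward from a shared start region. In GENCODE M21 (GRCm38), Col4a1 (ENSMUSG00000031502, chr8:11198423-11312826, minus strand) and Col4a2 (ENSMUSG00000031503, chr8:11312805-11449287, plus strand) share 22 bases at their starts. Col4a4 (chr1:82448423-82586849, minus strand) and Col4a3 (chr1:82586921-82722059, plus strand) lie 71 bases apart. Between Col4a6 and Col4a5 on chromosome X lie 1308 bases. Col6a2 (chr10:76595762-76623630), Col6a1 (chr10:76708792-76726168) and Col18a1 (chr10:77052178-77166548) lie on the minus strand of 1 chromosome. Col23a1 lies on the plus strand at chr11:51289920-51583918. Because Col4a1 and Col4a2 exons overlap on opposite strands, as do exons of Col4a3 and the gene model C430014B12Rik, and no source used here states whether strand was used in counting, some of their reads may be counted for the partner.

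Start regions of members whose values are described in full were read from the RefSeq promoter windows (GRCm38.p6), in which 35 of the 44 members had an entry. Only bases upstream of the annotated exons are printed, 5′ to 3′ on the strand of the named gene. The first is the whole gap shared by Col4a4 and Col4a3, 2 chains that were not called in either comparison, at chr1:82586850-82586920. Next are Col6a1 at chr10:76726169-76726294 and Col6a2 at chr10:76623631-76623880, 2 partner chains that both rose after bleomycin. The last is Col23a1 at chr11:51289670-51289919, the member that fell. Capitals mark a match to a searched motif.
Col4a4 to Col4a3 gap: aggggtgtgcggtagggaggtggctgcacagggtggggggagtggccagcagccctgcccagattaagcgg
Col6a1: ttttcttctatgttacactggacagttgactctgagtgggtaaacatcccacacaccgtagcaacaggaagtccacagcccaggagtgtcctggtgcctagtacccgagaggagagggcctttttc
Col6a2: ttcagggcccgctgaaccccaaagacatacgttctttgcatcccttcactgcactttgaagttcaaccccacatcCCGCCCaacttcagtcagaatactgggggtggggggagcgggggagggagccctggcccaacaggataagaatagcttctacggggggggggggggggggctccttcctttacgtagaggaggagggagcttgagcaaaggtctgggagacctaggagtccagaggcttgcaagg
Col23a1: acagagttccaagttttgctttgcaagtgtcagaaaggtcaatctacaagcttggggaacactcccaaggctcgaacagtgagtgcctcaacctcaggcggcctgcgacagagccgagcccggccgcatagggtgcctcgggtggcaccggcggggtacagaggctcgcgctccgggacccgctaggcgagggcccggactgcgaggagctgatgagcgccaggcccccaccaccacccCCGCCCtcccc
The motifs searched on both strands were the GC box (GGGCGG), the CCAAT box (CCAAT), the TATA box (TATAAA) and the AP-1 site (TGANTCA). Col6a2 and Col23a1 each held 1 GC box, and the other motifs were not in these windows. Among 32851 RefSeq windows cut to the 250 bases before the start, 32.7% held a GC box, 33.8% a CCAAT box, 12.4% a TATA box and 6.75% an AP-1 site. Cut to 71 bases, 20.7% of windows held a GC box. The GC content was 69.0% in the gap of Col4a4 and Col4a3, 51.6% upstream of Col6a1, 59.2% upstream of Col6a2 and 66.0% upstream of Col23a1.

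Depth ran from 3295257 to 6333166 counts per total-RNA library and from 10493574 to 15727139 per poly(A) library. Of these, 4947 to 21079 per total-RNA library and 17910 to 27690 per poly(A) library fell on collagen genes. Levels are given as CPM, the counts of a gene relative to all counts of its library, scaled to each library's size with the TMM method. The 12 AT2 markers examined passed the filter on low counts in both experiments and summed to 94801 to 104182 CPM in naive, 56839 to 105410 in bleomycin, 226408 to 231824 in vehicle and 223787 to 231388 in ISRIB libraries. After bleomycin, 2 of these 12 markers rose and 2 fell, 9 of 11 alveolar type 1 markers rose and all 11 tested markers of transitional epithelium rose (edgeR, adjusted p under 0.05), beside 20.5% of all 11223 genes tested called in either direction, 11.2% as higher and 9.31% as lower. Among the markers that rose, Pdpn, Cldn4 and Tnip3 had 19, 8 and 39 counts over the naive libraries. They did not pass the filter on the naive libraries alone, so a rise in them was favoured by the filter. The share of any of these cell states in the collagen results was not tested.

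In naive AT2 libraries the collagen transcripts were mostly type IV. Col4a1 and Col4a2 together took 54.8% to 59.9% of the collagen counts in naive and 50.2% to 63.3% in bleomycin libraries. Col1a1, Col1a2 and Col3a1 together took 0.1% to 0.53% in naive and 0.45% to 3.73% in bleomycin libraries, with the highest value in bleomycin 2. Per kilobase of exon, the naive means were 72.9 CPM ± 9.3 (SD, n = 4) for Col4a1, 66.0 ± 5.86 for Col4a2 and 55.6 ± 3.04 for Col6a1. The next members were several times lower, with 11.2 CPM per kilobase for Col4a4, 8.76 for Col4a3, 6.85 for Col6a2, 6.52 for Col23a1 and 6.09 for Col4a5. In this order, Col4a1 and Col4a2, Col6a2 and Col23a1, and Col23a1 and Col4a5 were neighbours whose ranges of mean ± SD overlapped. In the poly(A) libraries of vehicle mice, the order began with Col4a1 at 83.1, Col6a1 at 79.5 and Col4a2 at 75.9 CPM per kilobase, and Col6a2 followed at 9.92. Levels of the 2 kits were not compared by a test. In the naive libraries 32 to 41 members had at least 1 count, and in the bleomycin libraries 26 to 37.

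Summed over all 44 members, collagen transcripts came to 1659.4, 1557.8, 1753.2 and 1839.6 CPM in naive 1 to 4. In bleomycin 1 to 5 the sums were 3688.2, 2897.3, 3264.2, 3363.8 and 2868.5 CPM. The lowest bleomycin sum was thus well above the highest naive sum. In bulk RNA, a change in the number of cells of a type and a change in RNA per cell cannot be told apart.

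A total of 17 members passed the filter on low counts, 4 fibrillar, 5 network and 8 other. Of these, 10 rose after bleomycin and 1 fell (edgeR quasi-likelihood test, Benjamini-Hochberg adjusted p under 0.05). Over all 11223 genes tested, 20.5% were called, 11.2% as higher and 9.31% as lower. Col1a1, Col1a2, Col3a1 and Col11a2 passed the filter only through the bleomycin libraries, so a rise in them was favoured by the filter, while the other 13 passed it on the naive libraries alone. The median log2 fold change was 1.05 over the 17 members and 0.003 over all genes tested. It was 2.53 for the 4 fibrillar, 0.33 for the 5 network and 0.96 for the 8 other collagens. All 4 fibrillar members behind that median were among those that passed only through the bleomycin libraries. With no filter on low counts, the median was 0.33 over the 44 members, 1.28 for the fibrillar and -0.08 for the other collagens, beside -0.265 over all genes. Naive and bleomycin values did not overlap for 10 of the 17 members, 8 higher and 2 lower. Over all genes tested, 19.7% did not overlap, 10.4% higher and 9.35% lower.

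**Figure D1:**
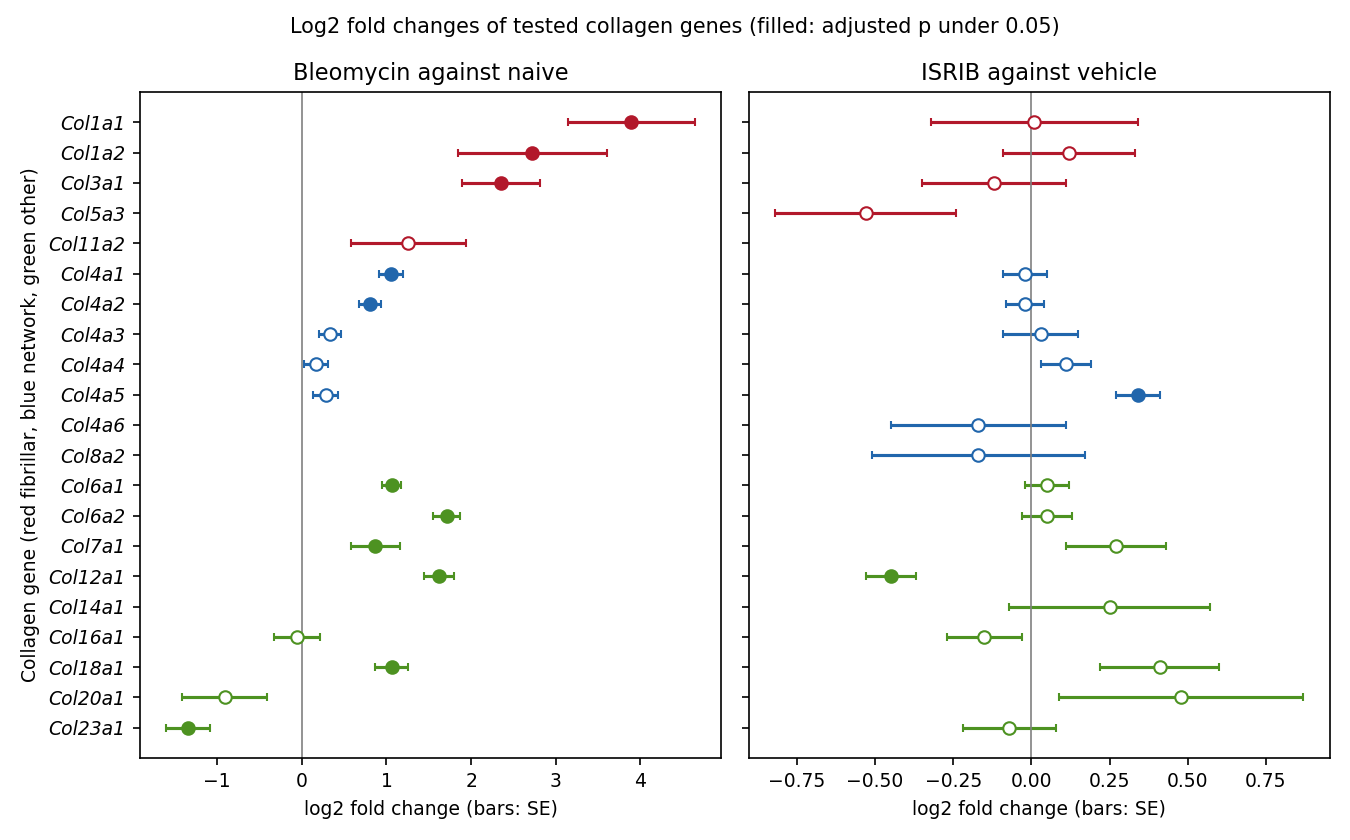
Log2 fold change of each tested collagen gene after bleomycin (left) and after ISRIB (right, on a narrower x axis), with bars of 1 standard error; filled points have an adjusted p under 0.05. After bleomycin the filled points run from -1.34 for Col23a1 to 3.89 for Col1a1, and after ISRIB only Col12a1 (-0.45) and Col4a5 (0.34) are filled. Col1a1, Col1a2, Col3a1 and Col11a2 passed the filter only through the bleomycin libraries, which favoured a rise in them.

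Among the network collagens, the common basement membrane chains Col4a1 and Col4a2 rose after bleomycin, while the alveolar chains Col4a3, Col4a4 and Col4a5 did not pass the test. Col4a1 stood at 503, 469, 589 and 615 CPM in naive 1 to 4 and at 1209, 840, 1262, 1282 and 1051 CPM in bleomycin 1 to 5. Col4a2 stood at 406, 406, 449 and 486 CPM in naive and at 909, 615, 806, 787 and 725 CPM in bleomycin libraries. All bleomycin libraries lay above all naive libraries for both genes, and bleomycin 2 was the lowest of its group. The log2 fold change was 1.05 (SE 0.14, edgeR adjusted p = 4.04e-05) for Col4a1 and 0.81 (SE 0.13, edgeR adjusted p = 0.000182) for Col4a2.

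Col4a3, the chain whose non-collagenous end is the target of antibodies in Goodpasture disease, stood at 103, 77.1, 85.3 and 84.1 CPM in naive libraries. In bleomycin libraries Col4a3 stood at 139, 89.1, 101, 112 and 109 CPM, and the groups overlapped. Its log2 fold change was 0.33 (SE 0.13, edgeR adjusted p = 0.0918), and without bleomycin 2 it was 0.40 with an adjusted p of 0.0379. Col4a4, its partner chain, stood at 128, 101, 124 and 121 CPM in naive and at 179, 116, 131, 132 and 112 CPM in bleomycin libraries. Bleomycin 1 was the highest, and the groups overlapped (log2 fold change 0.17, SE 0.14, edgeR adjusted p = 0.41). Col4a5, the X-linked chain mutated in most families with Alport syndrome, stood at 35.6, 38, 41.1 and 48.9 CPM in naive and at 59.8, 41, 51.3, 42.4 and 54 CPM in bleomycin libraries (log2 fold change 0.28, SE 0.15, edgeR adjusted p = 0.203). Col4a6, the partner of Col4a5 in smooth muscle basement membranes, had 25 counts over the naive and 66 over the bleomycin libraries and was not tested. Of the type VIII and X network collagens, Col8a1 had 2 and 4 counts, Col10a1 had 2 and 0 counts, and Col8a2 had 10 and 88 counts, 51 of them in bleomycin 2.

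**Figure D2:**
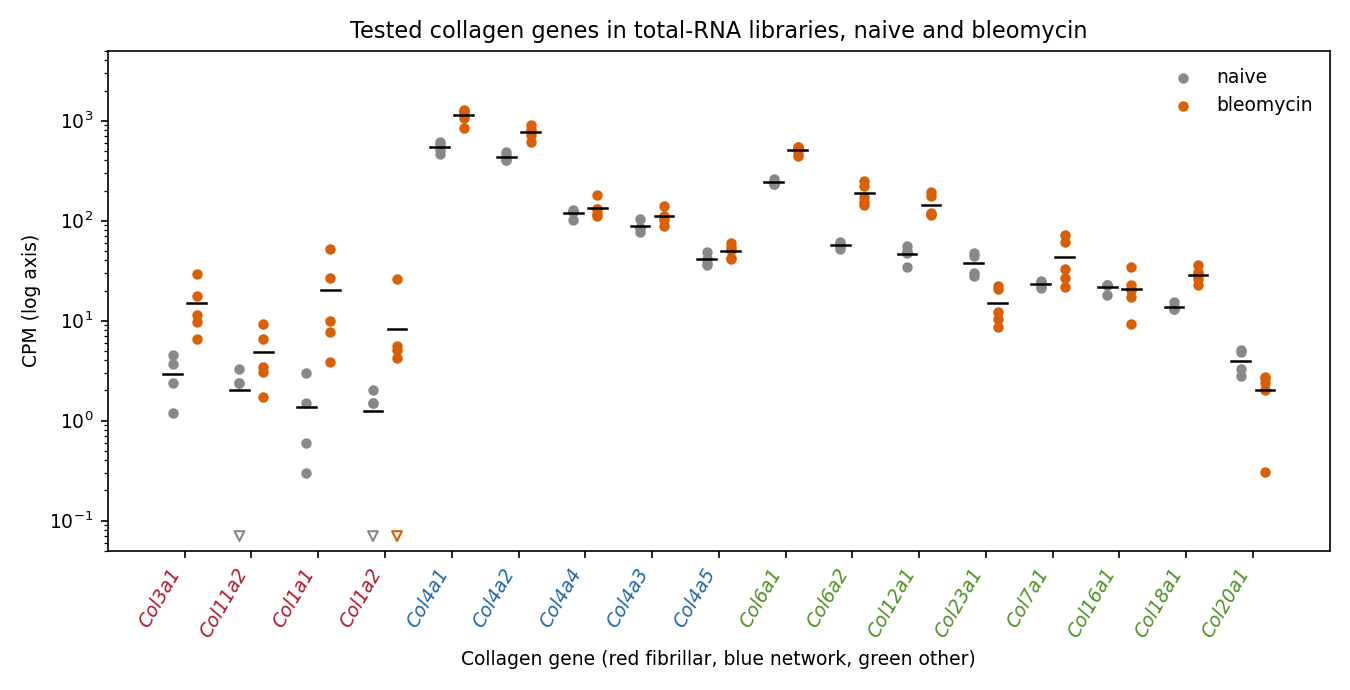
CPM of the 17 tested collagen genes, on a log axis, in 4 naive and 5 bleomycin libraries. Each point is a library, the black line is the group mean and hollow triangles mark libraries with 0 counts. Col1a1, Col3a1, Col4a1, Col4a2, Col6a1, Col6a2, Col12a1 and Col18a1 separate the groups upward. Col20a1 and Col23a1 separate them downward, and the others, Col4a3, Col4a4 and Col4a5 among them, overlap.

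The other collagens held the clearest separations. Col6a1 stood at 232, 246, 235 and 261 CPM in naive and at 534, 550, 476, 546 and 438 CPM in bleomycin libraries (log2 fold change 1.06, SE 0.11, edgeR adjusted p = 3.93e-06). Col6a2 stood at 51.7, 61.5, 58.5 and 56.3 CPM in naive and at 250, 220, 173, 153 and 142 CPM in bleomycin libraries (log2 fold change 1.71, SE 0.16, edgeR adjusted p = 9.95e-07). The groups were apart for both chains of the type VI heterotrimer. Col6a3, the longest chain of that trimer, had only 20 counts over the naive and 74 over the bleomycin libraries and was not tested. Of its 74 counts, 49 lay in bleomycin 2, and without that library the ratio of its summed, size-scaled counts fell from 2.1 to 0.906 (95% interval 0.483 to 1.72, counting error only).

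Col12a1, which codes for a collagen that coats fibril surfaces, stood at 47.3, 34.6, 49.5 and 55.7 CPM in naive and at 193, 175, 116, 120 and 113 CPM in bleomycin libraries. Its log2 fold change was 1.62 (SE 0.18, edgeR adjusted p = 7.32e-06). Col18a1, a basement membrane collagen whose cleaved end is endostatin, stood at 13.1, 13.2, 15.3 and 13.7 CPM in naive and at 30.4, 36.3, 28.8, 26.3 and 22.6 CPM in bleomycin libraries (log2 fold change 1.06, SE 0.19, edgeR adjusted p = 0.000535). Neither gene overlapped between the groups. Col7a1, which makes the anchoring fibrils below stratified epithelia, stood at 21.5, 21.4, 24.6 and 25 CPM in naive libraries. In bleomycin 1 to 5 it stood at 72.2, 21.7, 32.8, 60.6 and 26.8 CPM. Bleomycin 1 and 4 were far above the rest, and bleomycin 2 lay within the naive range. Its log2 fold change was 0.87 (SE 0.29, edgeR adjusted p = 0.0393). The Col7a1 call was lost without bleomycin 1 (0.60, adjusted p = 0.0996), without bleomycin 4 (0.71, adjusted p = 0.0897), without any 1 naive library and with limma-voom (adjusted p = 0.157).

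Col23a1, a collagen that spans the cell membrane, was the 1 member that fell. It stood at 47.3, 44.2, 28.2 and 29.8 CPM in naive and at 10.3, 8.66, 20.8, 22.3 and 12.2 CPM in bleomycin libraries. The groups did not overlap, and the log2 fold change was -1.34 (SE 0.26, edgeR adjusted p = 0.00121). Col20a1 was also lower in every bleomycin library, at 0.309 to 2.71 CPM against 2.78 to 5.03, without passing the test (log2 fold change -0.91, edgeR adjusted p = 0.216). Col16a1, another fibril-associated collagen, did not pass the test (log2 fold change -0.06, edgeR adjusted p = 0.892), and its sign turned without bleomycin 2 (0.13). Col17a1, the hemidesmosome collagen of basal cells, had 6 counts in each group, and all 6 of the bleomycin counts came from bleomycin 1.

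The fibrillar collagens were scarce in these libraries. Col1a1 and Col3a1 were higher in every bleomycin library than in any naive library, on few counts. Both, like Col1a2, passed the filter only through the bleomycin libraries, so a rise that passed the test was favoured by the filter. Col1a1, the major chain of type I collagen, stood at 3.02, 1.5, 0.3 and 0.596 CPM in naive and at 26.7, 52.3, 3.87, 9.9 and 7.76 CPM in bleomycin libraries. That is 19 counts in all naive and 497 in all bleomycin libraries, 290 of them in bleomycin 2. The ratio of size-scaled counts was 14.8 (95% Clopper-Pearson interval 9.39 to 24.8, counting error only) and 7.9 without bleomycin 2 (4.93 to 13.4). The log2 fold change was 3.89 (SE 0.75, edgeR adjusted p = 0.00112), and 3.13 without bleomycin 2 (adjusted p = 0.00187). The call was lost with limma-voom (adjusted p = 0.144).

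Col3a1, which makes the thin fibrils that mix with type I, stood at 3.69, 2.35, 4.5 and 1.19 CPM in naive and at 17.5, 29.4, 6.5, 11.4 and 9.66 CPM in bleomycin libraries. Its log2 fold change was 2.35 (SE 0.46, edgeR adjusted p = 0.00123), and 1.94 without bleomycin 2 (adjusted p = 0.00339). Col1a2, the second chain of type I collagen, stood at 2.01, 1.5, 1.5 and 0 CPM in naive and at 5.55, 26.3, 4.18, 0 and 5.07 CPM in bleomycin libraries. Naive 4 and bleomycin 4 held no count, so the groups overlapped. Its log2 fold change was 2.72 (SE 0.88, edgeR adjusted p = 0.0334). As for Col1a1, the filter favoured a rise in Col3a1 and Col1a2. The ratio of its size-scaled counts was 7.11, and 3.22 without bleomycin 2. The Col1a2 call was lost with DESeq2 (adjusted p = 0.126), with limma-voom (0.28) and without any 1 naive library (0.0589 to 0.101). It fell below the filter without bleomycin 1, 2, 3 or 5.

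The type V chains, which start fibril assembly, and Col8a2 were too low to be tested. Bleomycin 2 held most of the bleomycin counts of Col5a1, Col5a2 and Col8a2. Col5a1 had 25 naive and 158 bleomycin counts, 105 of the latter in bleomycin 2, and its ratio went from 3.58 to 1.54 without that library. Col5a2 had 11 and 111 counts, 76 of them in bleomycin 2, with ratios of 5.72 and 2.31. Col8a2 had ratios of 4.99 and 2.68. Col5a3 had 21 and 48 counts, 14 of the latter in bleomycin 2, with ratios of 1.29 and 1.17. Col24a1, a fibrillar collagen of bone and cornea, went the other way with 31 naive and 11 bleomycin counts. Col11a2 was tested and not called (log2 fold change 1.26, edgeR adjusted p = 0.203). Every other untested member not named here or above had at most 19 naive and 22 bleomycin counts.

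Values for markers of mesenchymal cells, in which fibrillar collagens are abundant, were set beside these genes. The summed level of Col1a1, Col1a2 and Col3a1 was 8.72, 5.34, 6.31 and 1.79 CPM in naive 1 to 4 and 49.7, 108, 14.6, 21.3 and 22.5 CPM in bleomycin 1 to 5. A list of 20 mesenchymal markers without collagens summed to 121 to 164 CPM in naive and 141 to 219 CPM in bleomycin libraries, and Gsn and Cthrc1 took 75.3% to 94.6% of it. Of the 20, 4 were tested and 1 rose, the microfibril gene Fbn1 (log2 fold change 2.64, SE 0.67, edgeR adjusted p = 0.00818). With 19 counts over the naive libraries, Fbn1 did not pass the filter on them alone, so a rise was favoured by the filter. Gsn averaged 130 CPM in naive and 147 in bleomycin libraries (log2 fold change 0.18, edgeR adjusted p = 0.361). Cthrc1 went the other way, from 10.1 to 6 CPM, and was lower in every bleomycin library than in any naive library. It did not pass the test (log2 fold change -0.72, edgeR adjusted p = 0.112). The 18 markers other than Gsn and Cthrc1, set apart after values were seen, summed to 15.4, 8.97, 8.41 and 6.56 CPM in naive and to 22.2, 54.1, 12.5, 39 and 14.6 CPM in bleomycin libraries. Both sums were highest in bleomycin 2, and bleomycin 4 was next for the markers, while bleomycin 1 was next for the collagens. The fibroblast proteoglycan gene Dcn had 1 naive and 51 bleomycin counts, Lum was at 0 in all 9 libraries, and Tcf21 and Pi16 were at 0 in the bleomycin libraries. Mesothelial markers summed to 0.3 to 7.38 CPM in naive and 3.44 to 26 CPM in bleomycin libraries, with 1 of 6 tested, Msln, which rose. Msln had 11 counts over the naive libraries, so the filter favoured a rise in Msln too. Endothelial markers summed to 23.8 to 39.6 and 27.8 to 91.7 CPM, and 2 of the 6 tested, Vwf and Cdh5, rose. Beside these lists, 11.2% of all genes tested were called as higher and 9.31% as lower. The part of these cell types in the collagen values was not tested.

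**Figure D3:**
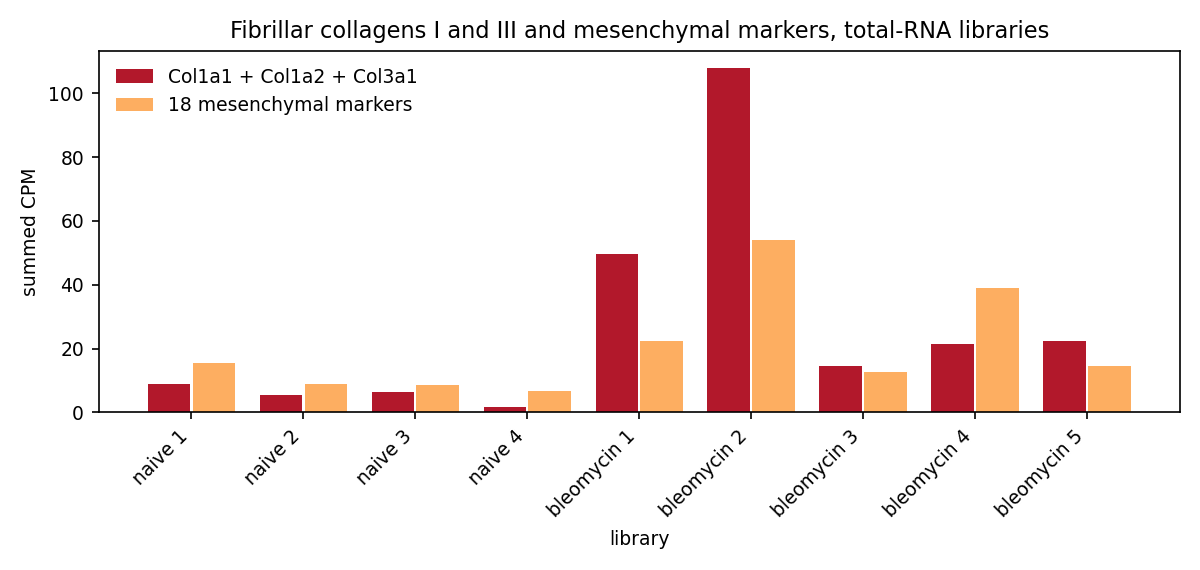
Bars give, for each naive and bleomycin library, the summed CPM of Col1a1, Col1a2 and Col3a1 and the summed CPM of 18 mesenchymal markers without Gsn and Cthrc1, on axes that start at 0. Bleomycin 2 has the highest value of both, 108 and 54.1 CPM. Cthrc1, left out of the marker sum after values were seen, was lower in every bleomycin library than in any naive library.

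Within types IV and VI, the balance between chains differed between naive and bleomycin libraries. Ratios were taken within each library on CPM per kilobase of exon, and since the 4 ratios were chosen after values had been seen, they were not tested. Col4a1 plus Col4a2 over Col4a3 plus Col4a4 plus Col4a5 was 4.65, 5.41, 5.57 and 5.74 in naive and 7.54, 7.91, 9.68, 9.7 and 8.5 in bleomycin libraries. The groups did not overlap, and the geometric means were 5.33 and 8.62. Col6a1 over Col6a2 was 8.54, 7.61, 7.62 and 8.82 in naive and 4.06, 4.75, 5.24, 6.76 and 5.88 in bleomycin libraries, again without overlap. Its geometric mean went from 8.13 to 5.26, as Col6a2 rose more than Col6a1. Col4a1 over Col4a2 went from 1.1 to 1.3, with naive libraries at 1.02 to 1.16 and bleomycin libraries at 1.18 to 1.44. Col4a3 over Col4a4 had geometric means of 0.782 and 0.875, and its groups overlapped.

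**Figure D4:**
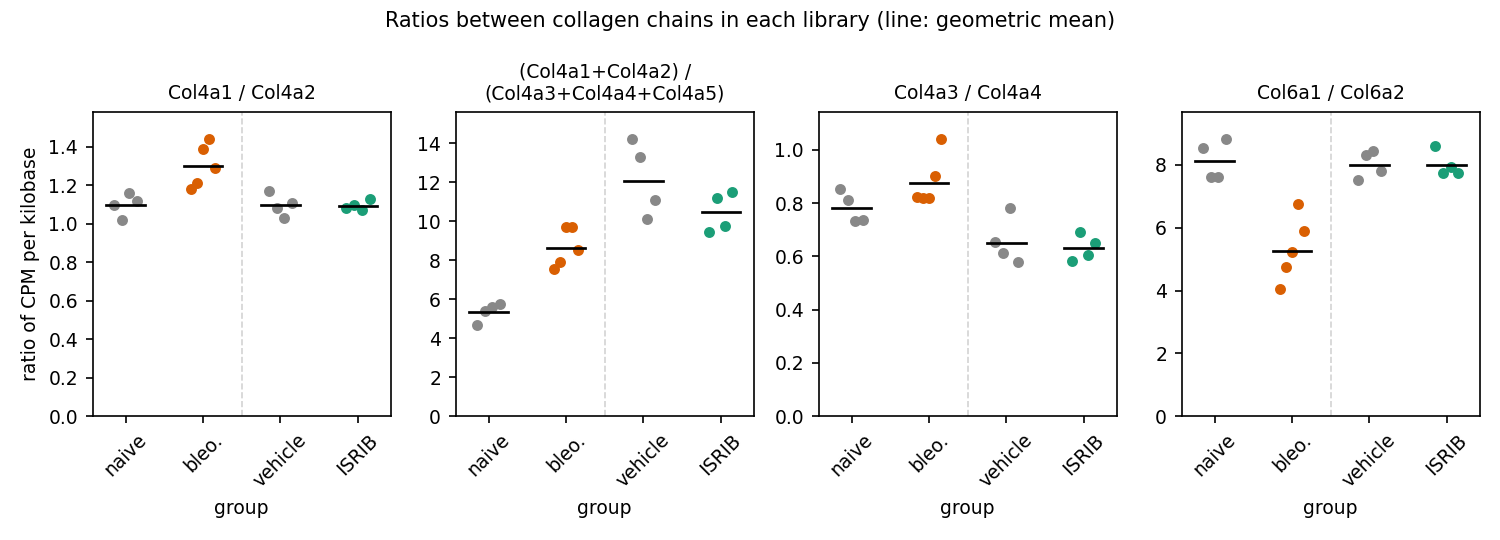
Ratios between collagen chains, each point a library and each line the geometric mean of a group, on linear axes that start at 0; the dashed line separates the total-RNA from the poly(A) libraries. Naive and bleomycin points are apart for the ratio of Col4a1 plus Col4a2 over the 3 alveolar chains (4.65 to 5.74 against 7.54 to 9.7), while vehicle and ISRIB points overlap for every ratio.

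Genes that act on collagens were read from 5 lists. Of 25 genes for collagen processing and secretion, 21 were tested, 4 rose and 1 fell after bleomycin, with a median log2 fold change of 0.24. A share of called genes this size is close to the 20.5% called over all genes tested. Sparc, a collagen-binding matrix protein, rose by 1.1, Serpinh1, the collagen chaperone of the endoplasmic reticulum, by 1.06 and P4hb, the shared subunit of prolyl hydroxylase, by 0.70 on the log2 scale. Creb3l1, a transcription factor that activates collagen secretion genes, fell by 1.15. Of 15 genes for trimming and cross-linking, 4 were tested. Pxdn, which forms the sulfilimine cross-links of type IV collagen, rose by 2.47, Pcolce, an enhancer of procollagen cleavage, by 2.21, and Tgm2, a transglutaminase, by 1.48. Pxdn had 15 and Pcolce 38 counts over the naive libraries. Neither passed the filter on the naive libraries alone, so a rise in them was favoured by the filter. Bmp1, the proteinase that removes the C-terminal propeptide of fibrillar collagens, fell by 1.15, from 294 CPM ± 28.7 (SD, n = 4) to 133 ± 31.7 (SD, n = 5).

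Of 18 partners of type IV collagen in the basement membrane, 11 were tested, 7 rose and 1 fell, with a median of 0.58, beside 11.2% of all genes tested called as higher and 9.31% as lower. Of the 7 that rose, Lamb1 had 48 counts over the naive libraries and did not pass the filter on them alone, so its rise was favoured. The heparan sulfate proteoglycan gene Agrn rose by 1.51 and the integrin ligand gene Npnt by 1.28, and Smoc2 fell by 1.70. Of 11 collagen receptors, 5 were tested. Ddr1, the epithelial collagen receptor kinase, rose by 1.37 and Mrc2, an endocytic collagen receptor, by 1.28, while the integrin chain gene Itga1 fell by 0.84. Of 15 genes for collagen degradation and its inhibitors, 3 were tested and all rose, the inhibitor gene Timp2 by 2.18, the membrane collagenase gene Mmp14 by 1.05 and Timp3 by 0.64. Among the genes called in these lists, the edgeR adjusted p ran from 1.64e-06 for Agrn to 0.0491 for Timp3.

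After ISRIB, Col12a1 was lower, Col4a5 was higher and no other collagen was called. Of the 44 members, 38 had a count and 20 passed the filter, 1 of which rose and 1 of which fell (edgeR, adjusted p under 0.05), beside 2.2% of the 12054 genes tested (1.1% in each direction). The median log2 fold change was 0.02 over the 20 members and 0 over all genes. None of the 4 fibrillar members tested was called by edgeR, DESeq2 or limma-voom, and none had an unadjusted p under 0.05, as 16% of all genes tested had. The groups did not overlap for 2 of the 20, 1 higher and 1 lower, beside 8.65% of all genes tested (4.26% higher and 4.39% lower).

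Col12a1, the fibril-coating collagen that rose after bleomycin, stood at 48.4, 40.6, 43.9 and 44.6 CPM in vehicle 1 to 4 and at 30.6, 29.2, 34.8 and 35.6 CPM in ISRIB 1 to 4. The groups did not overlap, and the log2 fold change was -0.45 (SE 0.08, edgeR adjusted p = 0.00817). Col4a5 stood at 31.7, 29.1, 31.9 and 32 CPM in vehicle and at 38.1, 43.6, 39.7 and 36.7 CPM in ISRIB libraries, without overlap. Its log2 fold change was 0.34 (SE 0.07, edgeR adjusted p = 0.0208). Col4a5 no longer passed when vehicle 1 (0.35, adjusted p = 0.0594), vehicle 2 (0.31, adjusted p = 0.077) or ISRIB 2 (0.29, adjusted p = 0.0578) was left out.

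The chains that dominate the collagen RNA of these cells did not pass the test after ISRIB. Col4a1 stood at 684, 633, 585 and 579 CPM in vehicle and at 554, 668, 578 and 653 CPM in ISRIB libraries (log2 fold change -0.02, SE 0.07, edgeR adjusted p = 0.942). Col4a2 stood at 519, 520, 506 and 464 CPM in vehicle and at 457, 537, 478 and 513 CPM in ISRIB libraries (log2 fold change -0.02, SE 0.06, edgeR adjusted p = 0.928). The groups overlapped for both genes. Col4a3 stood at 28.5, 30, 46.7 and 31 CPM in vehicle and at 34.7, 35.9, 35.4 and 34.7 CPM in ISRIB libraries, with vehicle 3 above all others (log2 fold change 0.03, edgeR adjusted p = 0.935). Col4a4 stood at 46.6 to 63.5 and 55.2 to 63.3 CPM (log2 fold change 0.11, edgeR adjusted p = 0.553). Col4a6 stood at 1.81 to 2.36 and 0.961 to 2.28 CPM (log2 fold change -0.17, edgeR adjusted p = 0.847). The signs of the Col4a1, Col4a2, Col4a3 and Col4a6 values turned in some settings that left out 1 library.

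Col6a1 and Col6a2, the type VI chains, were both highest in ISRIB 2 and ISRIB 4. Col6a1 stood at 339, 338, 363 and 351 CPM in vehicle and at 330, 388, 324 and 396 CPM in ISRIB libraries. Col6a2 stood at 85.7, 77.3, 81.7 and 85.5 CPM in vehicle and at 72.9, 95.4, 77.4 and 97.1 CPM in ISRIB libraries. For each of the 2 genes the log2 fold change was 0.05, with an edgeR adjusted p of 0.803 for Col6a1 and 0.834 for Col6a2. Col18a1 showed the same 2 libraries further apart, at 18, 19.4, 19.9 and 16.6 CPM in vehicle and at 17.5, 31.2, 16.1 and 34.5 CPM in ISRIB libraries (log2 fold change 0.41, SE 0.19, edgeR adjusted p = 0.291). It passed the threshold when no filter on low counts was applied (0.41, adjusted p = 0.00183). Col7a1 stood at 5.79 to 6.84 CPM in vehicle and at 5.68, 9.29, 6.8 and 8.25 CPM in ISRIB 1 to 4 (log2 fold change 0.27, edgeR adjusted p = 0.437). In the same 2 libraries the summed macrophage and monocyte markers were 3650 and 4038 CPM, against 2045 to 2424 CPM in the other 6, mostly from Lyz1. For other genes of that list only group values are given, which do not show ISRIB 2 and ISRIB 4 alone. Cd14 averaged 78.9 CPM in vehicle and 75.9 in ISRIB libraries, and Cd68 4.54 and 4.95. Ptprc had 6 vehicle and 2 ISRIB counts, and C1qa had 0 in both groups. Airway epithelial markers in ISRIB 2 and ISRIB 4 summed to 3343 and 2428 CPM, against 3912 to 4368 CPM elsewhere, mostly from Scgb1a1. Of 6 tested airway markers 1 was called, Tppp3 (log2 fold change -0.43, edgeR adjusted p = 0.00384), beside 2.2% of all genes tested. Tppp3 was lower in all ISRIB libraries than in any vehicle library, not in ISRIB 2 and ISRIB 4 alone. Cyp2f2 had a lower mean in ISRIB than in vehicle libraries, while Foxj1 and Muc5b had higher means. Whether these transcripts, or the cells they came from, play a part in the Col18a1, Col6a1, Col6a2 and Col7a1 values was not tested.

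**Figure D5:**
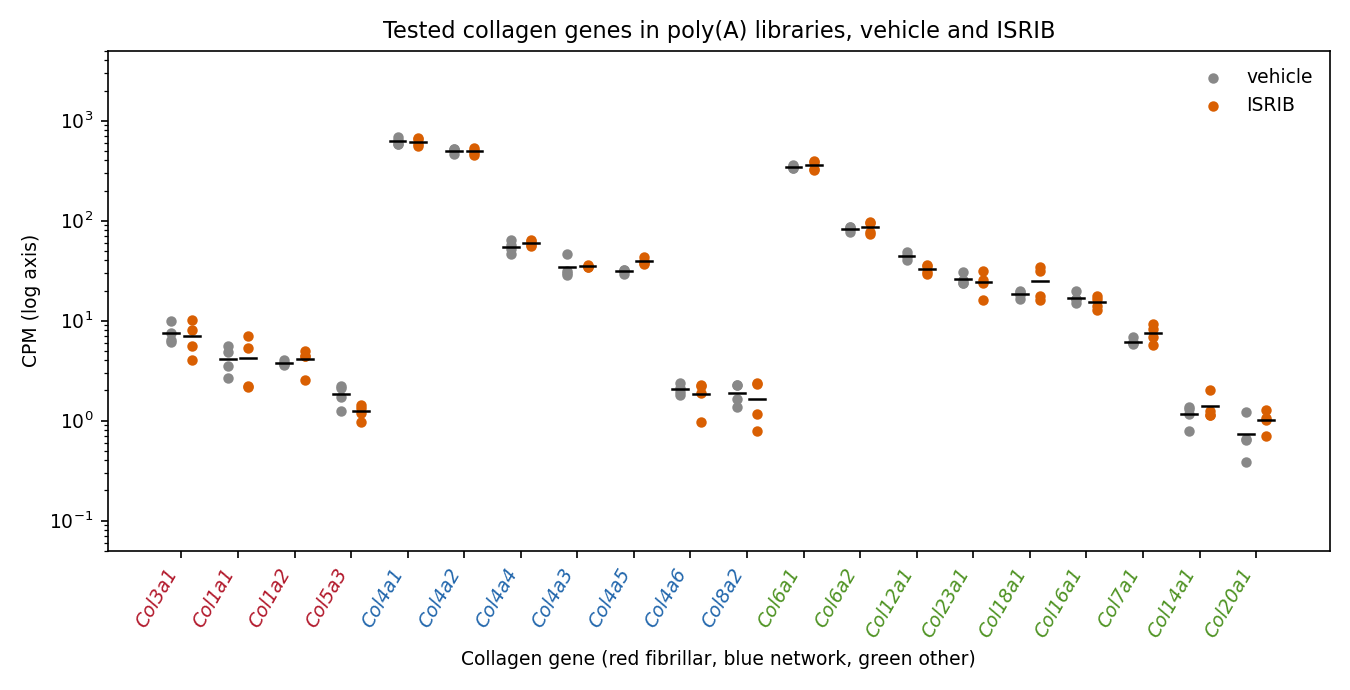
CPM of the 20 tested collagen genes, on a log axis, in 4 vehicle and 4 ISRIB libraries. Each point is a library and the black line is the group mean. Col12a1 and Col4a5 are apart between the groups, and 2 ISRIB libraries stand above the rest for Col18a1, at 31.2 and 34.5 CPM.

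The fibrillar collagens were also scarce in the poly(A) libraries. Col1a1 stood at 4.82, 5.61, 2.69 and 3.49 CPM in vehicle and at 2.23, 6.97, 5.37 and 2.19 CPM in ISRIB libraries (log2 fold change 0.01, SE 0.33, edgeR adjusted p = 0.99). Col1a2 stood at 3.62 to 4.08 and 2.54 to 4.97 CPM (log2 fold change 0.12, edgeR adjusted p = 0.842). Col3a1 stood at 6.11 to 9.95 and 4.04 to 10.2 CPM (log2 fold change -0.12, edgeR adjusted p = 0.863). The sign of the Col1a1 value changed with limma-voom (-0.11) and with 1 library left out (down to -0.36), and that of Col3a1 with 1 library left out (up to 0.06). None of 9 tested mesenchymal markers was called, beside 2.2% of all genes tested, so the absence of calls in so short a list says little. Col23a1, the gene that fell after bleomycin, stood at 23.7 to 30.3 CPM in vehicle and at 16.1 to 31.5 CPM in ISRIB libraries (log2 fold change -0.07, edgeR adjusted p = 0.871), and its sign turned without vehicle 4 or ISRIB 4 (0.01 and 0.08). Col17a1 had 3 vehicle and 4 ISRIB counts. Col15a1, a basement membrane collagen with 3 vehicle and 15 ISRIB counts, was too low to be tested.

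Ratios between chains overlapped between vehicle and ISRIB libraries. Col4a1 over Col4a2 had a geometric mean of 1.09 in both groups, and Col6a1 over Col6a2 had 8.01 and 8. Col4a1 plus Col4a2 over Col4a3 plus Col4a4 plus Col4a5 was 14.2, 13.3, 10.1 and 11.1 in vehicle and 9.46, 11.2, 9.76 and 11.5 in ISRIB libraries. In the 5 lists, Serpinh1 rose by 0.39 (edgeR adjusted p = 0.0431), P4hb fell by 0.19 (adjusted p = 0.046) and Timp2 rose by 0.54 (adjusted p = 0.0129). The number of processing and secretion genes called went from 2 to between 0 and 1 in every setting that left out 1 library. It was 1 with the replicate block, with GC and length trends removed and with both. With the settings used throughout, 5 genes for trimming and cross-linking, 7 collagen receptors and 14 basement membrane partners were tested, and none was called. Over all genes tested 2.2% were called, so the absence of calls in lists this short says little. With no filter on low counts, 4 basement membrane partners and 1 collagen receptor were called, and limma-voom called 1 partner. With 1 library left out, 0 to 2 partners and 0 to 1 receptors were called (1 partner without vehicle 1 or ISRIB 1, 2 without ISRIB 3, and 1 receptor without vehicle 3).

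Col12a1 was the 1 collagen called in both comparisons, with a log2 fold change of 1.62 after bleomycin and -0.45 after ISRIB. Each value came from its own kit and its own controls, and the difference between them was not tested. In every alternative setting run, Col12a1 kept its sign and its call, from 1.5 to 1.75 after bleomycin and from -0.49 to -0.40 after ISRIB.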

How the data were processed

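The authors deposited raw read counts per Ensembl gene, 1 table per kit. The submitters' processing notes name bcl2fastq, FastQC, Trimmomatic 0.36, STAR 2.6.0, HTSeq 0.11.2 and the build mm10, with no settings or order. Gene IDs were matched to GENCODE M21, and 42462 had a symbol. Within each kit, filterByExpr removed low genes (count 10, total 15 as minima), and counts were scaled by TMM and tested 2-sided with edgeR 4.0.16 in R 4.3.3, adjusted by Benjamini-Hochberg over all genes tested. Calls were made below an adjusted p of 0.05. SE is the unshrunk log2 fold change over the root of F. The common coefficient of biological variation was 21.1% in the bleomycin and 7.66% in the ISRIB comparison. Scripts were tested on simulated data. Alternatives were DESeq2 1.42.0, limma-voom (3.58.1), RLE factors, no filter, a replicate block, GC and length trends removed, RNA classes left out and each library left out. Full values were given for called members and a fixed panel of type I, III, IV, VI, VII, XVII and XVIII chains, and for lists up to 3 called genes per direction, 1 of which is not reported here. The members and lists were chosen with earlier results of these data known.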

Additional observations from a re-analysis of the deposited data

Results flagged for a closer look

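Among 62 groups of libraries screened for 1 library far from the others, 4 were picked out. The cutoffs pick out about 1 in 20 groups by chance where values are normally distributed, which low counts are not. In each group picked out, the gap from the extreme library to its nearest neighbour was large for the range of its group. Col17a1 was at 1.59 CPM in bleomycin 1 and at 0 in the other 4 bleomycin libraries. A group with counts in 1 library only is always picked out, whatever its level. Col1a2 was at 26.3 CPM in bleomycin 2, with the next library at 5.55 and the lowest at 0. Col4a3 was at 46.7 CPM in vehicle 3, with the next at 31.0 and the lowest at 28.5. Col4a5 was at 29.1 CPM in vehicle 2, below the other 3 vehicle libraries at 31.7 to 32.0 CPM.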

How the results depend on the processing

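Over the 8 settings that kept every library, the bleomycin calls of Col1a1, Col1a2 and Col7a1 were the ones lost. The count of 11 called collagens was 10 with DESeq2, 8 with limma-voom, 14 with no filter (adding Col5a1, Col5a2 and Col8a2), 10 with GC and length trends removed (Col7a1 at 0.0657) and 9 to 11 with 1 library left out. The fibrillar count of 3 was 1 with limma-voom, 5 with no filter and 2 to 3 with 1 library left out. Leaving out the filter moved the median of all genes to -0.265. After ISRIB, the 265 genes called over all genes were 408 with DESeq2, 648 with no filter and 86 to 269 with 1 library left out, lowest without vehicle 1, then vehicle 2 (102) and ISRIB 4 (159). Collagens called as higher were 2, and other collagens called 2, with no filter. With 1 library left out, collagens called were 1 to 2, called higher 0 to 1 and network collagens called 0 to 1. The ISRIB sign of Col1a1 turned with limma-voom (-0.11), with the replicate block (-0.05) and with the block and GC and length trends removed (-0.05). With 1 library left out, ISRIB values that turned sign ran from -0.36 to 0.25 for Col1a1, -0.35 to 0.06 for Col3a1, -0.06 to 0.03 for Col4a1, -0.06 to 0.02 for Col4a2, -0.04 to 0.24 for Col4a3, -0.29 to 0.05 for Col4a6, 0 to 0.09 for Col6a1, -0.01 to 0.13 for Col6a2, -0.38 to 0.05 for Col8a2 and -0.23 to 0.08 for Col23a1. Col16a1 after bleomycin ran from -0.30 to 0.13. The cause of these changes was not tested. Same-numbered libraries did not deviate together (correlations -0.11 to 0.08), and only vehicle 4 was closest to its own number. With the replicate block, 11 and 2 collagens were called, the same genes as without it, while collagen processing and secretion genes called after ISRIB went from 2 to 1. Members with few counts carry wide counting intervals at this depth.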
